A study of Urocitellus parryii with 3 samples.

Results

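miR-122-5p and miR-122-3p, the mature strands cut from the 2 arms of the miR-122 hairpin, were followed in 3 libraries of liver small RNA from the arctic ground squirrel (Urocitellus parryii), with all their length forms and tails. A read was a member where its first 18 bases were those of a mature arm. By this rule 63786 of 576915 distinct reads were members, of which 63718 belonged to the 5p arm and 68 to the 3p arm. Each library held mixed liver RNA of 1 stage: 6 wild-trapped animals after reproduction, in summer and not hibernating, 4 animals during early arousal and 4 during late torpor, 14 animals in all. The summer animals had 16 h of light and 8 h of dark and were anaesthetised with isoflurane. The labels give the hibernating animals 4 h of light and 20 h of dark, at least 4 torpor bouts, and death on day 4 of a bout. How that day applies to early arousal is not stated, and the isoflurane is named for the summer animals. Season, photoperiod, anaesthesia and hibernation cannot be told apart in these groups. With 1 library per stage the animals' spread is hidden, every ratio compares 2 libraries and not the stages, and no p-value can be given.

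miR-122 is the characteristic miRNA of hepatocytes, the main cells of the liver, and is best known for its part in cholesterol and lipid metabolism. A miRNA finds its target mRNAs mainly through its seed, bases 2 to 8 from the 5′ end, so a shifted 5′ end changes the seed while a shifted 3′ end does not. The 5p strand is the guide that is loaded into Argonaute, and the 3p strand is the passenger that is mostly degraded. The 3′ end of miR-122-5p is a known substrate of GLD2, a cytoplasmic poly(A) polymerase that adds adenine.

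The most abundant form of each arm carries the results and is shown with its seed in capitals, as the deposited reads spell it (T for U). All positions are on GeneScaffold 256, plus strand, in the unnamed build of the deposited table.
miR-122-5p at 347042 to 347063, 22 nt: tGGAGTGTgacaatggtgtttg
miR-122-3p at 347077 to 347097, 21 nt: aACGCCATtatcacactaaat
Between the 22 nt 5p form and the 3p arm lay 13 bases. The placed reads continued the 5p arm to 347069, which gives the template against which added bases were read.
Template of the 5p arm: tggagtgtgacaatggtgtttgtgtcca
Template of the 3p arm: aacgccattatcacactaaatagc
The forms of miR-122-5p that the results turn on differ only at the 3′ end, and bases that the template does not hold are in capitals.
21 nt: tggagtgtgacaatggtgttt
22 nt: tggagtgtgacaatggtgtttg
23 nt: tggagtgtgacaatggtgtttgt
22 nt plus adenine: tggagtgtgacaatggtgtttgA
22 nt plus cytosine: tggagtgtgacaatggtgtttgC
21 nt plus thymine: tggagtgtgacaatggtgtttT
21 nt plus 2 thymines: tggagtgtgacaatggtgtttTT
23 nt plus thymine: tggagtgtgacaatggtgtttgtT
The base of the template after the 22 nt form is a T. A uridine added to the 22 nt form and a longer templated cut therefore give the same 23 nt read and cannot be told apart.

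miR-122-5p made up most of each library. It had 4205895 of 5614441 placed reads after reproduction (74.9%), 4062934 of 5611673 in early arousal (72.4%) and 4468981 of 5860476 in late torpor (76.3%). The exact binomial 95% intervals of these shares were narrower than the differences between them, but such intervals cover counting error only. They treat each read as a separate molecule, although PCR copies cannot be told apart without molecular identifiers. After scaling by trimmed mean of M-values (TMM), the 5p level in late torpor was 1.14 times that after reproduction (1.14 to 1.15, exact conditional binomial 95% interval), a log2 ratio of 0.20. The level in early arousal was 0.820 times that after reproduction (0.819 to 0.821), a log2 ratio of -0.29. Early arousal stood at 0.716 times late torpor (0.715 to 0.717), a log2 ratio of -0.48. These differences rest largely on the scaling: with all placed reads as the total, the log2 ratios were 0.026, -0.049 and -0.075.

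miR-122-3p was rare, with 73 reads after reproduction, 111 during early arousal and 77 during late torpor. Its TMM-scaled level in late torpor was 1.14 times that after reproduction (0.814 to 1.59). In early arousal it was 1.29 times the level after reproduction (0.952 to 1.76) and 1.14 times that in late torpor (0.842 to 1.54). All 3 intervals include 1. Scaled to all placed reads, early arousal held 1.52 times the 3p level after reproduction (1.12 to 2.07) and 1.51 times that of late torpor (1.12 to 2.04), and both intervals then lie above 1.

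Neither arm differed 2-fold between any pair of libraries (0 of 2 members). Over all reads grouped by their first 18 bases, those of miR-122 included, 34.7 percent of groups differed at least 2-fold between late torpor and post-reproduction (187 of 539). The share was 22.5 percent between early arousal and post-reproduction (126 of 559) and 16.6 percent between early arousal and late torpor (89 of 536).

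The ratio of the arms needs no scaling, since both counts come from 1 library. Per 1000000 reads of both arms, 17.4 were 3p after reproduction (13.6 to 21.8, exact binomial 95% interval), 27.3 during early arousal (22.5 to 32.9) and 17.2 during late torpor (13.6 to 21.5). The early arousal library had the highest 3p share, and its interval did not overlap the others. Its 3p to 5p ratio was 1.57 times that after reproduction (1.16 to 2.14) and 1.59 times that in late torpor (1.18 to 2.15). Late torpor and post-reproduction had a ratio of 0.993 to each other (0.711 to 1.39). The plot of the 3p arm shows these shares.

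**Figure D1:**
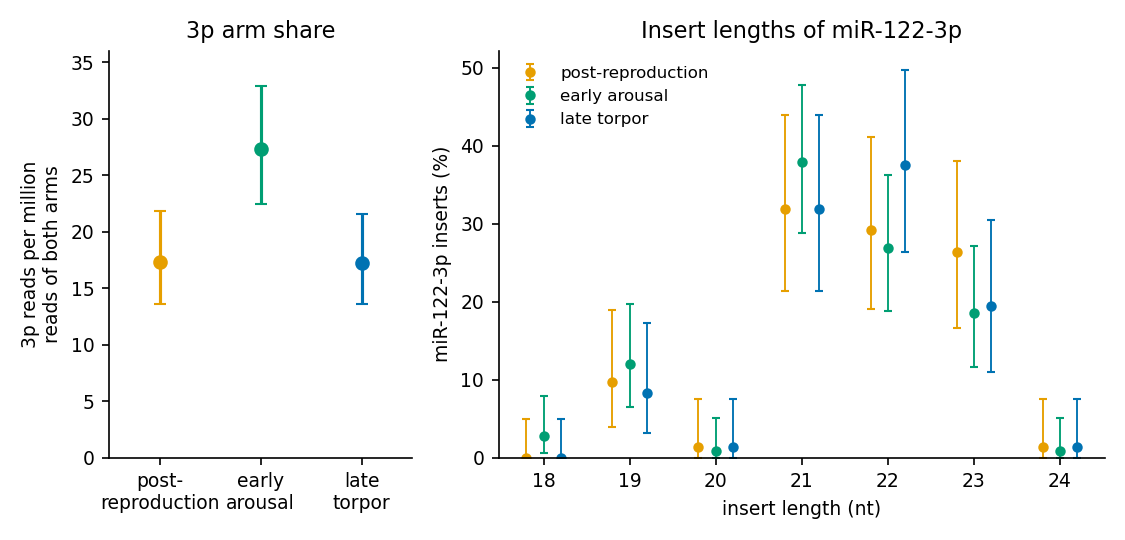
Left, miR-122-3p reads per 1000000 reads of both arms in each library; right, the share of miR-122-3p inserts by insert length in nt (percent), with points for values and bars for exact binomial 95% intervals. Early arousal lies at 27.3 per 1000000 against 17.4 and 17.2, while the length intervals of the libraries overlap at each length shown.

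The length of an insert was read where the 3′ adapter began, which could be found in 91.7% of 5p reads after reproduction, 90.3% during early arousal and 93.2% during late torpor. Inserts of 22 nt were 49.5% of 5p inserts after reproduction, 36.9% during early arousal and 40.0% during late torpor. Inserts of 23 nt were 25.7%, 35.1% and 35.4%, in the same order. Both libraries from hibernating animals thus held fewer 22 nt and more 23 nt inserts than the summer library. Inserts of 21 nt differed less, at 21.1%, 22.8% and 20.0%. Inserts of 24 nt were 0.968%, 1.74% and 1.65%, and those of 25 nt were 0.434%, 1.29% and 1.15%. The mean insert was 22.02 nt after reproduction, 22.14 nt during early arousal and 22.18 nt during late torpor.

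**Figure D2:**
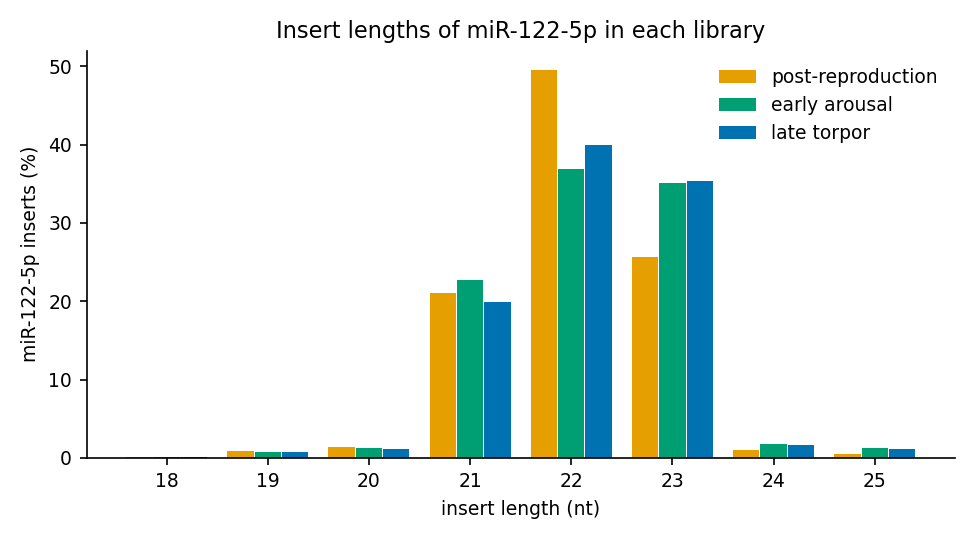
Share of miR-122-5p inserts (percent) by insert length in nt, with 1 bar per library. The 22 nt bar is highest after reproduction (49.5%), and the 23 nt bars of early arousal (35.1%) and late torpor (35.4%) stand above that of post-reproduction (25.7%).

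Split by sequence, the difference at 23 nt lay mostly in the templated form and not in the form with adenine. The templated 23 nt form was 12.3% of inserts after reproduction, 21.1% during early arousal and 21.5% during late torpor. Its share was 1.72 times as large in early arousal, and 1.75 times as large in late torpor, as after reproduction. The 22 nt form with an added adenine, also 23 nt long, was 11.9%, 10.9% and 11.7%. The templated 22 nt form was 46.7% after reproduction, 33.2% during early arousal and 37.4% during late torpor. For every 100 templated 22 nt inserts there were 26.3 templated 23 nt inserts after reproduction, 63.6 during early arousal and 57.5 during late torpor. The 21 nt form was 20.7%, 21.96% and 19.6% of inserts, the 20 nt form 1.40%, 1.26% and 1.07%, and the 19 nt form 0.804%, 0.787% and 0.716%.

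Among the less abundant forms, the 21 nt form with 2 thymines and the forms with 1 base on a 23 nt body were mostly larger shares in both hibernation libraries. The 21 nt form with 2 thymines was 0.333% after reproduction, 0.783% during early arousal and 0.557% during late torpor. A templated 23 nt insert whose base 22, a G, was misread as T gives the same read. The 23 nt form with thymine was 0.187%, 0.557% and 0.486%, which is 2.99 times as large a share in early arousal, and 2.61 times in late torpor, as after reproduction. The 23 nt form with adenine was 0.0858%, 0.197% and 0.226%. The 23 nt body was itself more abundant in both hibernation libraries, but the share of that body with a thymine also differed, at 1.46%, 2.45% and 2.12%. The 21 nt form with 1 thymine was 1.64%, 1.98% and 1.53%, and that with 1 adenine was 0.661%, 0.810% and 0.687%. The 22 nt form with 2 adenines was 0.409%, 0.419% and 0.466%.

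**Figure D3:**
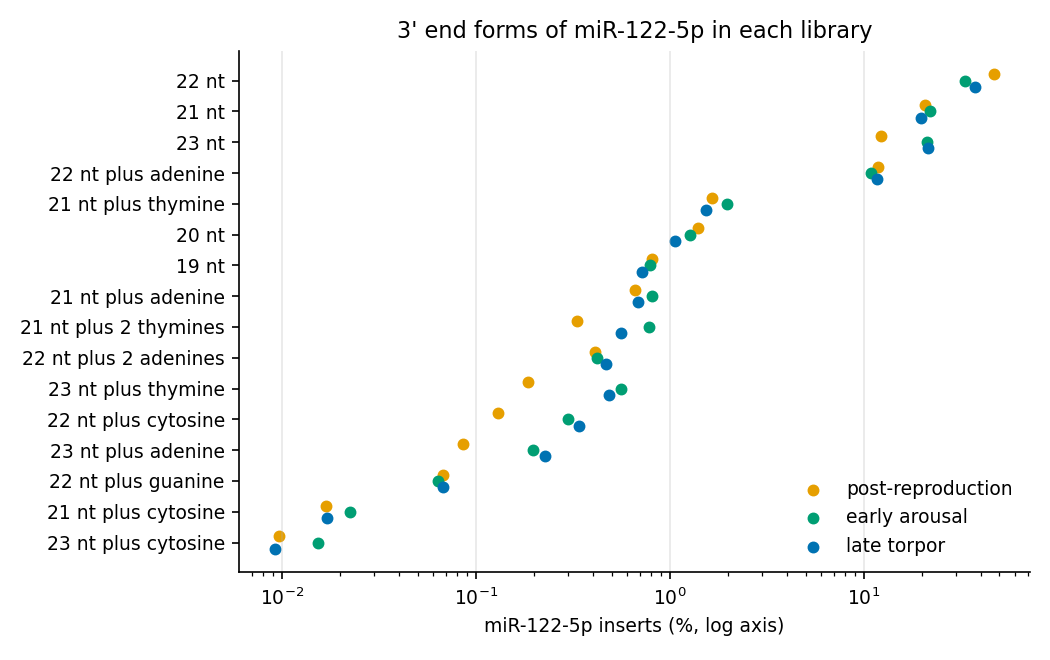
Share of miR-122-5p inserts (percent, log axis) for the 10 most abundant forms and for the forms with 1 added base on bodies of 21, 22 and 23 nt, with 1 point per library. The 22 nt form with adenine lies within 10.9% to 11.9% in all 3 libraries, and the templated 23 nt form is lower after reproduction (12.3%) than in early arousal (21.1%) and late torpor (21.5%).

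Among single added bases that the template let be counted, adenine was the most frequent on miR-122-5p. A thymine added to the 22 nt form is not counted, since it gives the templated 23 nt form. That form was 12.3%, 21.1% and 21.5% of inserts, so adenine and thymine cannot be ranked over all additions. A single untemplated adenine ended 12.9% of inserts after reproduction, 12.2% during early arousal and 12.8% during late torpor. A single thymine ended 1.83%, 2.53% and 2.01%, counted only where the template has another base. A single cytosine ended 0.167%, 0.366% and 0.374%, and a single guanine 0.0920%, 0.0887% and 0.0859%. Tails of 2 or 3 bases were 2.35%, 4.34% and 3.77% of inserts. Those made of thymine alone were 0.417%, 1.28% and 0.939%, and those of adenine alone were 0.796%, 1.08% and 1.15%. In total 17.4%, 19.6% and 19.1% of inserts had a tail by this count. An insert with 1 misread base after base 20, followed by 1 or 2 template bases, also counts as a tail of 2 or 3 bases. The part of such misreads in the tails was not tested.

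The share with adenine depended on where the templated body ended. Of inserts with a 22 nt body, 19.9% had 1 adenine after reproduction, 23.9% during early arousal and 23.03% during late torpor. With a 21 nt body the share was 2.73%, 3.01% and 2.90%, and with a 23 nt body 0.670%, 0.864% and 0.982%. With a 20 nt body it was 12.5%, 16.6% and 14.8%. In each library the 22 nt body had the highest share of these 4 bodies and the 23 nt body the lowest. The rare 24 nt body, with 511, 793 and 567 inserts, had 22.3%, 23.6% and 23.1%. A body of 22 nt plus a uridine is counted as a 23 nt body here, so the share on the 22 nt body would be lower if such additions were among the 23 nt reads. The same holds for the 20 and 24 nt bodies, where the next template base is also T. After the 21 and 23 nt bodies it is G, so an added uridine stays with them. The high and low adenine shares follow this split, and the bodies are not on a like footing. On each of the 4 bodies both hibernation libraries had a higher adenine share than the summer library, whereas over all inserts early arousal had the lowest share with a single adenine. For late torpor the size of the difference on the 22 nt body, and the direction over all inserts, depended on the adapter search. Per 100 templated 22 nt inserts there were 25.4 with adenine after reproduction, 32.8 during early arousal and 31.1 during late torpor. With every base after the insert equal to the adapter, these were 34.6, 38.4 and 35.4, so late torpor lay close to post-reproduction. Per 100 templated inserts of 21 nt the same filter gave 3.04, 3.86 and 3.75 with adenine, and per 100 of 23 nt it gave 0.887, 1.04 and 1.16. On these bodies late torpor stayed above post-reproduction. That filter did not remove the forms evenly. After reproduction it left 1099296 of 1803124 templated 22 nt reads and 379971 of 458531 with adenine. In late torpor it left 1276493 of 1558675 and 451350 of 485289. Over all inserts late torpor was below post-reproduction by less than 1 percentage point, and with 6 adapter bases searched it was slightly above, at 12.96% and 12.94%.

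**Figure D4:**
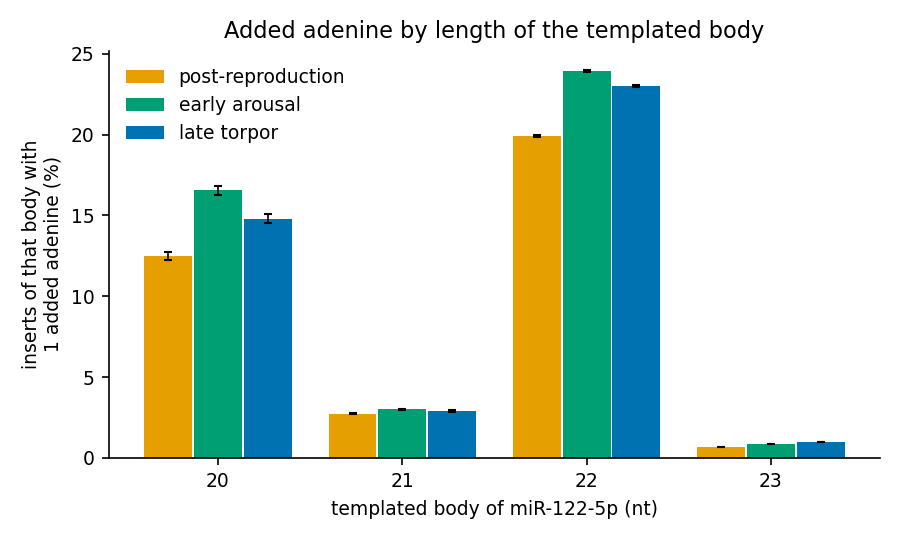
Share of miR-122-5p inserts with 1 added adenine (percent) among inserts whose templated body has the length on the x axis (nt), with 1 bar per library and exact binomial 95% intervals. The 22 nt body stands between 19.9% and 23.9%, the 20 nt body between 12.5% and 16.6%, and the 21 and 23 nt bodies at or below 3.01%. The next template base is T after the 20 and 22 nt bodies and G after the others, so an added thymine is counted only with the latter.

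Sequencing errors at the adapter junction differed between the libraries and touch the rarer tails. After 22 nt inserts the first adapter base, a T, was read as A in 0.114% as many reads as had the exact adapter after reproduction, 0.257% during early arousal and 0.577% during late torpor. Applied to the 23 nt form, whose last base is also a T, this rate would give reads equal to 0.111%, 0.480% and 1.03% of the 22 nt form with adenine. After the same 22 nt inserts, errors at the next adapter base, a C, were more frequent and ran the other way between the libraries. It was read as T in 8.65%, 1.44% and 0.734% as many reads as had the exact adapter, and as G in 3.68%, 1.28% and 0.476%. After 21 nt inserts the same adapter C was read as T in 0.902%, 1.66% and 5.38%, highest in late torpor. The same product for the 22 nt form with cytosine was 12.2%, 28.2% and 43.0% of its reads. That form was 0.130% of inserts after reproduction, 0.300% during early arousal and 0.339% during late torpor. For the 21 nt form with thymine the product, from G read as T, was 9.13%, 5.69% and 4.79%. Its rate came from base 22 of reads with 19 nt inserts and rested on only 23, 26 and 19 misread reads. At later read bases the adapter's G was read as T more often, at 0.510%, 0.536% and 0.658% after 21 nt inserts. Inserts that differed from the template inside the body were 0.607% after reproduction, 1.95% during early arousal and 0.466% during late torpor. Among reads whose bases after the insert all equalled the adapter, there were 33.7 templated 23 nt inserts per 100 of 22 nt after reproduction, 71.9 during early arousal and 63.1 during late torpor. After reproduction this filter left 370865 of 474869 templated 23 nt reads and 1099296 of 1803124 of 22 nt.

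The 5′ end of miR-122-5p, which sets the seed, was nearly fixed. Reads from the main start were 99.9% of reads at the 5p locus in each library. The forms that start 1 base later or 1 base earlier are shown with the bases at seed positions in capitals.
Start at 347043, most abundant insert: gGAGTGTGacaatggtgtttg
Start at 347041, most abundant insert: gTGGAGTGtgacaatggtgttt
Starts at 347043 were 745 per 1000000 reads of the locus after reproduction, 1014 during early arousal and 1068 during late torpor. The adapter was found in only 71.8%, 74.7% and 74.7% of these reads. Starts at 347044 were 149, 191 and 184 per 1000000. Starts at 347041 were rarer still, with 72 reads after reproduction, 62 during early arousal and 70 during late torpor.

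The later and earlier starts differed in where they ended. The most abundant insert from 347043 and from 347044 ended at 347063 in each library, as the main 22 nt form does. Inserts that start at 347041 mostly kept a length of 22 nt (97.1%, 90.0% and 89.7%) and so ended mostly at 347062. Starts at 347040 (39, 17 and 29 reads) and 347039 (24, 15 and 18 reads) were also mostly 22 nt inserts.

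The 3p arm had its own set of 3′ ends, from 72 inserts after reproduction, 108 during early arousal and 72 during late torpor. Untemplated bases are in capitals.
21 nt: aacgccattatcacactaaat
22 nt: aacgccattatcacactaaata
22 nt plus thymine: aacgccattatcacactaaataT
21 nt plus thymine: aacgccattatcacactaaatT
The 21 nt form had 19 reads after reproduction, 29 during early arousal and 18 during late torpor. The 22 nt form had 18, 22 and 14 reads. The 22 nt form with thymine had 16, 13 and 8 reads, and the 21 nt form with thymine had 3, 7 and 9. The 19 nt form had 7, 12 and 6 reads. These counts are too few to show differences between the libraries.

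Among single bases that the template let be counted, thymine was the most frequent on the 3p arm and adenine on the 5p arm. The 3p template holds A after the 18, 19 and 21 nt bodies and T after the 20 nt body. An adenine added to the 21 nt form gives the templated 22 nt form (18, 22 and 14 reads) and is not counted. The shares below therefore do not rank all added thymine against all added adenine. A single thymine ended 26.4% of 3p inserts after reproduction (16.7 to 38.1), 19.4% during early arousal (12.5 to 28.2) and 25% during late torpor (15.5 to 36.6). A single adenine ended 4.17% (0.868 to 11.7), 7.41% (3.25 to 14.1) and 6.94% (2.29 to 15.5). The intervals for thymine and adenine did not overlap after reproduction or in late torpor, with bounds of 15.54% and 15.47% in late torpor, while in early arousal they shared the range from 12.5% to 14.1%.

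The 3′ ends of miR-122-5p were set beside those of 56 other groups of reads with a common 18-base start and at least 1000 inserts in each library. Shifted starts of miR-122 and starts up to 3 substitutions from the main one were left out of them. The median share of inserts with a single added adenine in these groups was 4.49% after reproduction, 5.68% during early arousal and 5.17% during late torpor. miR-122-5p lay above the median in each library, and 7, 8 and 8 of the 56 groups had a higher share. In 37 of the 56 groups the share was higher in late torpor than after reproduction, and in 37 it was higher in early arousal. For miR-122-5p these differences were -0.096 and -0.65 percentage points, and the direction of the former depended on the adapter search. An adenine can be counted only where a group's template has another base, so the groups differ in what can be seen. The lowest share was 0% in each library. The highest shares among them belonged to 3 starts, given by their 18 bases.
31.1%, 33.1% and 32.3%: taaggcacgcggtgaatg
29.9%, 30.3% and 30.7%: actggacttggagtcaga
17.1%, 22.2% and 20.0%: tgtaaacatccccgactg

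Most other groups also had a longer mean insert in the hibernation libraries. The mean insert of miR-122-5p was 0.154 nt longer in late torpor than after reproduction. The median difference in the 56 groups was 0.0339 nt, 45 of them had a longer mean insert in late torpor, and 5 had a larger difference than miR-122-5p. In early arousal the mean 5p insert was 0.122 nt longer than after reproduction, beside a median of 0.0425 nt; 41 groups were longer and 8 had a larger difference. Over all inserts of the other groups, 23 nt inserts were 19.04% after reproduction, 21.1% during early arousal and 20.9% during late torpor. These steps were smaller than in miR-122-5p, but the pooled shares weight each group by its reads. The largest group held 532111 of 1097804 inserts after reproduction, 586294 of 1175618 during early arousal and 607776 of 1125309 during late torpor. Its mean insert was 22.08, 22.11 and 22.10 nt, in the same order. The pooled shares therefore reflect that group more than any other. The part of the libraries' own length range, set by the gel slice of 18 to 30 nt, was not tested.

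**Figure D5:**
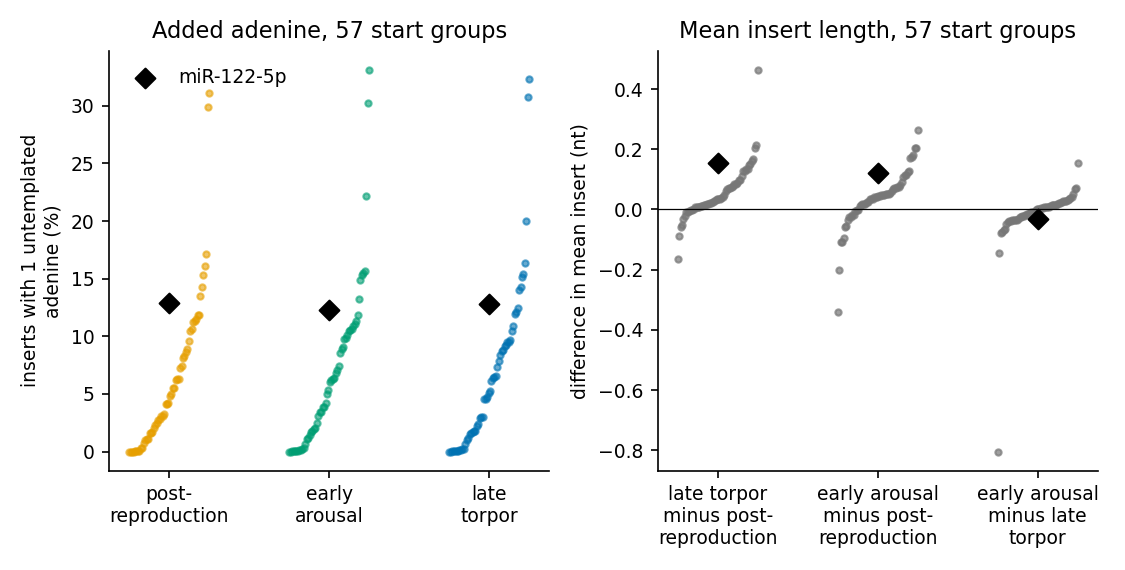
Left, share of inserts with 1 untemplated adenine (percent) in each library; right, difference in mean insert length between libraries (nt), with 1 point per start group and a diamond for miR-122-5p. miR-122-5p lies in the upper part of the groups for added adenine (12.2% to 12.9%) and, with 0.154 nt and 0.122 nt, for the length difference of late torpor and early arousal from post-reproduction.

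By level, the start groups with the pattern most like miR-122-5p were found from the distance between pairs of TMM-scaled log2 ratios, late torpor and early arousal each over post-reproduction, among 64 groups with at least 1000 reads in each library, with the same starts left out. Both ratios share the post-reproduction library. The 5 nearest are given by their 18 bases with the log2 ratio in late torpor, then in early arousal.
0.15 and -0.14: tgaggtagtaggttgtat
0.06 and -0.35: tgaggtagtagtttgtgc
0.02 and -0.31: tggagagaaaggcagttc
0.03 and -0.23: tagcaccatttgaaatcg
0.37 and -0.24: tagcttatcagactgatg
All 5 had a value above 0 in late torpor and below 0 in early arousal, as miR-122-5p did at 0.20 and -0.29; the choice of the nearest groups fixes this likeness.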

How the data were processed

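Small RNA of 18 to 30 nt from pooled liver RNA was amplified by 15 cycles of PCR and sequenced on an Illumina instrument, per the labels' protocols. The deposited table joins a read, its whole-number read count and its stage in each text entry, per the file headers. Counts were used as deposited. The aligner, genome build and read filters were not given in the sources used here. Reads are 30 bases long, and a read placed at several positions was counted once per stage. Members and lists were chosen with earlier results of these data known.

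The start of the 3′ adapter was searched with up to 1 mismatch in its first 5 bases, giving inserts of 18 to 25 nt. A tail was up to 3 bases beyond a templated body, from the first base unlike the template onward. The body had at least 20 nt on the 5p arm and at least 18 nt on the 3p arm. Reads were grouped by their first 18 bases, and groups 1 substitution from a 20-fold more abundant group were left out. Groups with at least 100 reads over both libraries were compared at 2-fold. TMM factors (30% trimmed on ratio, 5% on abundance) were 0.985, 1.16 and 0.875 for post-reproduction, early arousal and late torpor. Intervals are exact (Clopper-Pearson, 95%). The forms named were the 10 most abundant of the 5p arm and 5 of the 3p arm, every single-base tail on bodies of 21 to 23 nt, the 5 nearest start groups and the 3 with most added adenine. Code in Python 3.11.15 with numpy 2.4.6, scipy 1.17.1 and matplotlib 3.10.9 was tested on simulated data. For insert forms these held errors at an equal rate over the bases after the insert, unlike the uneven errors of the libraries. An earlier version with errors inside the insert missed its limit, and such a run was then recorded without a limit. The 56 and 64 groups set beside miR-122-5p leave out its shifted starts and starts up to 3 substitutions away. Alternatives changed the scaling, the start rule, the adapter search and the low-count limit. No miRNA reference was used here, so other start groups are unnamed and cell type marker miRNAs were not analysed here.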

Additional observations from a re-analysis of the deposited data

How the results depend on the processing

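The results were recomputed under the alternatives, 1 choice at a time, and 85 of 186 values moved by more than their counting interval, which for miR-122-5p is very narrow. Values are in the order post-reproduction, early arousal, late torpor unless stated. The log2 ratio of miR-122-5p in late torpor over post-reproduction was 0.026 with plain scaling, 0.17 with median-of-ratios scaling, 0.20 without distinct reads under 10 counts and -0.10 with the most abundant form only, which turns the direction. For early arousal over post-reproduction these were -0.049, -0.32, -0.28 and -0.80, and for early arousal over late torpor -0.075, -0.49, -0.48 and -0.70. The most abundant form alone gave 10.5 and 11.5 miR-122-3p reads per 1000000 of both arms in post-reproduction and late torpor. Without reads under 10 counts the 3p reads were 12.5, 18.4 and 11.3 per 1000000, so early arousal kept the highest value. Intervals are not given for this setting, so whether they stay apart is not shown.

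The 22 nt share of miR-122-5p was 47.8%, 37.1% and 40.7% with no adapter mismatch, 50.0%, 37.4% and 40.5% over 6 adapter bases, 49.6%, 37.0% and 40.0% without reads under 10 counts, and 49.0%, 36.2% and 39.5% with the adapter read over all bases after the insert, a setting chosen after seeing the data, as was the exact adapter over all bases used in the ratios per 100 inserts of 22 nt. The 23 nt share was 26.6%, 35.8% and 35.96% with no mismatch, 25.8%, 35.7% and 35.9% over 6 bases, 26.9%, 36.9% and 36.6% over all bases, and 35.2% in early arousal without reads under 10 counts. Each setting kept the 22 nt share highest, and the 23 nt share lowest, in post-reproduction.

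For single added bases, adenine was 13.8%, 12.9% and 13.4% with no mismatch, 12.9%, 12.4% and 13.0% over 6 bases, and 13.0%, 12.3% and 12.9% over all bases. Thymine was 1.52%, 2.33% and 1.88% with no mismatch and 2.02%, 2.76% and 2.16% over all bases. Over 6 bases it was 2.55% and 2.03% in early arousal and late torpor, and with 1 mismatch in the first 18 bases 1.85% in post-reproduction. Cytosine was 0.118%, 0.241% and 0.284% with no mismatch, 0.212%, 0.450% and 0.441% over all bases, and 0.155%, 0.356% and 0.367% without reads under 10 counts. Over 6 bases it was 0.158% and 0.357% in post-reproduction and early arousal. Guanine was 0.0806%, 0.0752% and 0.0811% with no mismatch, 0.0988%, 0.105% and 0.0976% over 6 bases, and 0.160%, 0.161% and 0.131% over all bases. Without reads under 10 counts it was 0.0860% and 0.0837% in post-reproduction and early arousal, and with 1 mismatch in the first 18 bases 0.0919% in early arousal. The cause of these shifts was not tested.

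With at least 1000 reads over both libraries, 19 of 107 start groups differed 2-fold between late torpor and post-reproduction, 12 of 117 between early arousal and post-reproduction and 11 of 116 between early arousal and late torpor; fewer groups were compared. At 1.5-fold the latter pairs had 246 and 199 groups. No paired analysis was possible because each stage has 1 pooled library and the labels carry no replicate numbers. For the same reason no replicate could be left out.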
